A study of Mus musculus with 37 samples.

Results

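The genes that build cholesterol and fatty acids were examined in NK cells of the pregnant mouse uterus (uNK cells). The 29 genes were taken by symbol from a list of targets and regulators of the SREBP transcription factors, and all 29 were found among the 53700 gene rows of each of 37 count files. They fall into a sterol branch of 18 genes, a fatty acid branch of 6 genes and a set of 5 regulators. uNK cells were sorted at gestation day 9.5 to 10.5 from C57BL6 mice by staining for NKG2A and Ly49C/I, inhibitory receptors for self MHC class I whose engagement during development, termed education, sets how responsive an NK cell becomes. Bulk RNA was then sequenced from 5 groups. In WT mice these were 9 libraries of uneducated cells, which carried neither receptor, 9 libraries of NKG2A+ cells without Ly49C/I, and 6 libraries of Ly49C/I+ cells without NKG2A. In NKG2A KO mice on the C57BL6 background they were 8 libraries of uneducated cells and 5 of Ly49C/I+ cells. Cells positive for both receptors were not sorted. KO cells lack NKG2A itself, so the 2 KO gates may also have taken in cells that would have carried it, and the antibody is listed by the study for NKG2C and NKG2E as well. The labels do not say whether a library came from 1 mouse or from several.

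Cholesterol is made from acetyl-CoA through the mevalonate pathway, squalene and lanosterol, and fatty acids are made from the same precursor by carboxylation, chain assembly and desaturation. The genes of both branches are switched on by the membrane-bound factors SREBP-1 and SREBP-2, which SCAP escorts to the Golgi for cleavage when sterols are scarce and which INSIG proteins hold in the endoplasmic reticulum when sterols are plentiful. Activated lymphocytes are known to raise these genes as they grow and divide.

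SREBPs bind sterol response elements beside CCAAT boxes, the site of the partner factor NF-Y, so the promoter windows of the genes were read. RefSeq (GRCm38.p6) gave a window for 24 of the 29 genes, and Fdps, Fdft1, Sqle, Scd1 and Scd2 had none in the table used here. The 250 bases before the annotated start are shown for Hmgcs1, Pmvk and Mvd, enzymes of the mevalonate pathway described below, and for Fasn, the fatty acid synthase, as a gene of the other branch. They lie at chr13:119690101-119690350 on the plus strand for Hmgcs1, chr3:89454291-89454540 on the plus strand for Pmvk, chr8:122443423-122443672 on the minus strand for Mvd and chr11:120824548-120824797 on the minus strand for Fasn. Each is written 5′ to 3′ on the strand of its gene, and capitals mark CCAAT read on either strand and, in Hmgcs1, the element TCACNCCAC.
Hmgcs1: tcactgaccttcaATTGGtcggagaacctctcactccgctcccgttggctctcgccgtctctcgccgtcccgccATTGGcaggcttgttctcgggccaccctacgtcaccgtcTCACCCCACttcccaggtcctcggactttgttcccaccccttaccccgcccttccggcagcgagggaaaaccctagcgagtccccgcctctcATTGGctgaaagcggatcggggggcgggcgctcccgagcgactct
Pmvk: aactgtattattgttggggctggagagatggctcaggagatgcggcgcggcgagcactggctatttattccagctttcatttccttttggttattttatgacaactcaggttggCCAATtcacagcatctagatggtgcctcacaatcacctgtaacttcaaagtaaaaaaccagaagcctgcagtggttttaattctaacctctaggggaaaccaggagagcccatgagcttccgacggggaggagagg
Mvd: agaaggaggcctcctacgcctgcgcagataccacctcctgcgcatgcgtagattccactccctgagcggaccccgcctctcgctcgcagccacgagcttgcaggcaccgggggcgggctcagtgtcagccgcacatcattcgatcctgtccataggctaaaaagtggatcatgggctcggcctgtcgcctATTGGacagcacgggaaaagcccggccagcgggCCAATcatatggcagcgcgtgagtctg
Fasn: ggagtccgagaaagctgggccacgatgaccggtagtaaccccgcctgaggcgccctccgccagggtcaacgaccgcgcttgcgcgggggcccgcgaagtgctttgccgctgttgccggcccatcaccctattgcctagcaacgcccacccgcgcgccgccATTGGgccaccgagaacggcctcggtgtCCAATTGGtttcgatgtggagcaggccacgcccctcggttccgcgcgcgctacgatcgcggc
CCAAT on either strand was present in 18 of the 24 windows (75%), against 34.5% of 27025 windows of the same length over all genes. That background was not limited to genes expressed in these cells. For Pmvk, Dhcr7, Srebf1, Scap and Insig2, which have 2 or 3 windows, only 1 was read. The element TCACNCCAC was present on either strand in 1 of the 24 (4.17%), that of Hmgcs1, against 1.04% of all windows. Only this exact pattern was searched, so other forms of the element would be missed. All 9 windows of the genes that were lower in at least 1 comparison of educated with uneducated cells held CCAAT, as did 9 of the 15 windows of the other genes. Fdps, Fdft1, Sqle and Scd2 were also lower in at least 1 comparison but had no window. The genes were listed as SREBP targets and regulators, and a link between CCAAT and the calls was not tested. These matches describe the letters of the windows, and binding was not measured.

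Between 13287163 and 18875033 reads fell on genes per library. Klrc1, which encodes NKG2A, lay between 495 and 753 CPM (read counts scaled to a common library size) in NKG2A+ libraries and at or below 13.9 CPM in every other group, WT and KO, so its level does not check the knockout. Klra9, which encodes Ly49I, lay between 452 and 1137 CPM in both Ly49C/I+ groups and at or below 124 CPM elsewhere. Klra3, which encodes Ly49C, was lower in WT Ly49C/I+ than in uneducated libraries (54.9 against 138 CPM, edgeR quasi-likelihood test, adjusted p = 0.00559), and reads of near-identical Klra genes may be counted on one another. In 4 libraries fewer genes had a count than elsewhere (13982 to 14197). These were WT uneducated 5, NKG2A+ 9, WT Ly49C/I+ 5 and KO Ly49C/I+ 5, and some of the results that rest on them are also given without them.

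Levels were first set side by side per length, as CPM per kilobase of the principal transcript, averaged over all 37 libraries. Acly, which makes cytosolic acetyl-CoA from citrate and so feeds both branches, had the highest level (84.3 CPM per kilobase), followed by the sterol isomerase Ebp (63.7), Srebf2 (52.7), Msmo1 (44.9), Cyp51 (36.4) and Scd2 (35.4). The rate-setting enzyme of fatty acid synthesis, Acaca, stood near the bottom (0.846), and of its 50-base stretches 30.4% also occur in other genes. Scd1 was lowest (0.347): it had no count in 9 libraries and reached 5 CPM in 2, so it was not tested in any comparison. Scd2, a close relative that performs the same desaturation, lay between 74.6 and 409 CPM. Fdps and Tm7sf2 lay near 5 CPM (medians of 5.06 and 4.98 CPM over all libraries), and each fell under the filter in some comparisons.

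**Figure D1:**
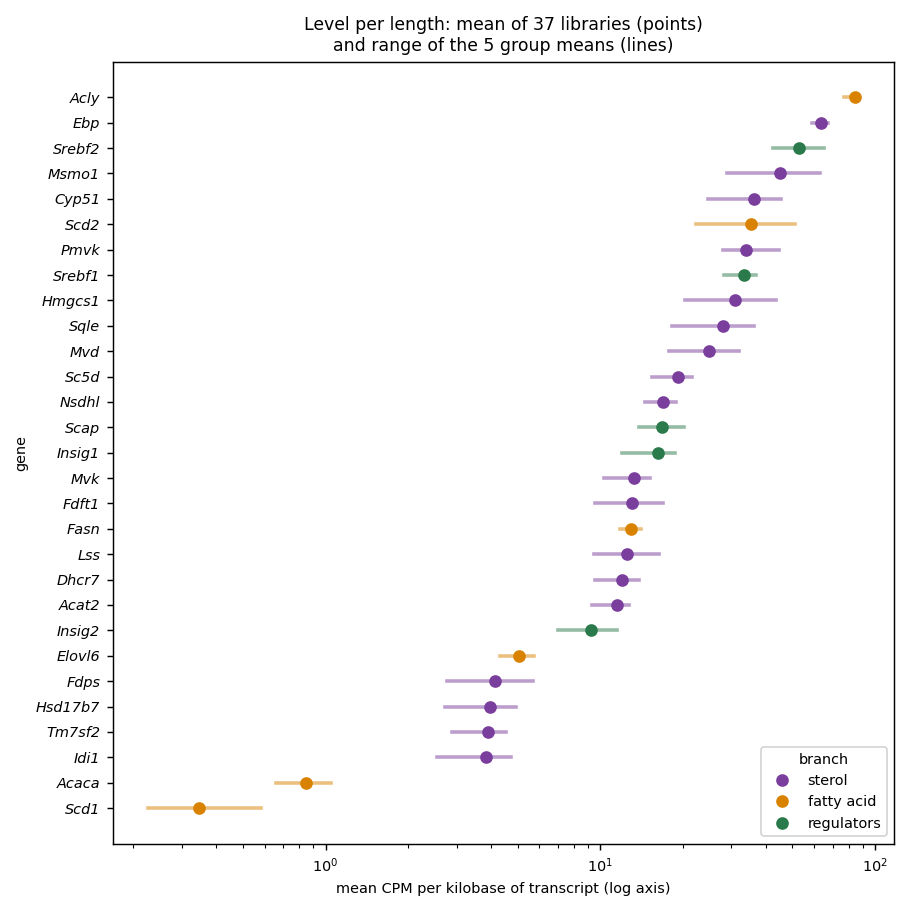
Mean level of each of the 29 genes over 37 libraries in CPM per kilobase on a log axis (points) with the range of the 5 group means (lines), coloured by branch. Acly lies at 84.3 and Scd1 at 0.347 CPM per kilobase, and the lines of Msmo1, Scd2 and Hmgcs1 are among the wider ones.

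Several sterol genes, Scd2 and Srebf2 were lower in educated than in uneducated cells, in WT mice for both receptors and in KO mice for Ly49C/I. In NKG2A+ cells, 10 of 28 genes tested were lower than in WT uneducated cells and none was higher (edgeR quasi-likelihood test, adjusted p under 0.05). Of all 9339 genes tested in that comparison, 15% were called, 7.47% as higher and 7.56% as lower. In WT Ly49C/I+ cells, 7 of 28 were lower and none higher, with 9.3% of 9292 genes called, 4.25% as higher and 5.05% as lower. In KO Ly49C/I+ cells, 10 of 27 were lower and none higher, with 16.3% of 9299 genes called, 7.34% as higher and 8.99% as lower. Both WT comparisons use the same 9 uneducated libraries, whereas the KO comparison shares no library with them. Without the 4 libraries with the fewest genes, the counts of lower genes were 12, 10 and 10, a setting chosen after seeing the data. With 1 library left out in turn they ran from 6 to 13, from 5 to 11 and from 9 to 11. The lowest counts came without WT uneducated 1, 3 or 4 or NKG2A+ 2 or 6, without WT uneducated 3 or 4 or WT Ly49C/I+ 1, 5 or 8, and without KO Ly49C/I+ 4 or 6, and the highest in both WT comparisons without WT uneducated 5. With no filter on CPM, 6 genes were lower in NKG2A+ cells. In KO mice Hmgcs1, Mvd, Fdps and Sc5d no longer passed with the replicate number of the labels as a block. With offsets for GC content and length as well, Fdft1, Sqle and Cyp51 were also lost there. The block alone ended the NKG2A+ calls of Mvd, Fdps and Srebf1, and added Mvd and Sqle in WT Ly49C/I+ cells. Hmgcs1, Cyp51, Msmo1, Scd2 and Srebf2 were lower in all 3 comparisons, and Pmvk, Mvd, Fdps and Lss in 2. Fdft1, Sqle, Sc5d and Srebf1 were lower in 1, and the other 16 genes in none. Fdps entered its 2 comparisons mainly through the uneducated libraries, as given below. The counts for NKG2A+ and KO Ly49C/I+ cells thus include a call that is not taken as support.

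In the sterol branch 7 of 18, 5 of 18 and 8 of 17 genes tested were called in that order (38.9%, 27.8% and 47.1%). Over all listed genes tested the shares were 35.7%, 25% and 37%. Of the 5 regulators, 2, 1 and 1 were called. The log2 fold change was below 0 for each of the 18, 18 and 17 sterol genes tested, with medians of -0.43, -0.70 and -0.55, beside medians over all genes tested of 0.01, -0.0001 and 0.02. These counts include Fdps, which entered all 3 comparisons mainly through uneducated libraries. In the WT Ly49C/I+ comparison it reached 5 CPM in 7 of 9 uneducated and 2 of 6 Ly49C/I+ libraries. Tm7sf2 did so there in 6 of 9 and 2 of 6. These signs of Fdps and Tm7sf2 are not taken as support. In the fatty acid branch 1 of 5 genes tested was called in each comparison, namely Scd2, and the medians were -0.10, -0.25 and -0.16. In bulk samples, fewer cells that make a transcript and less of it per cell cannot be told apart.

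**Figure D2:**
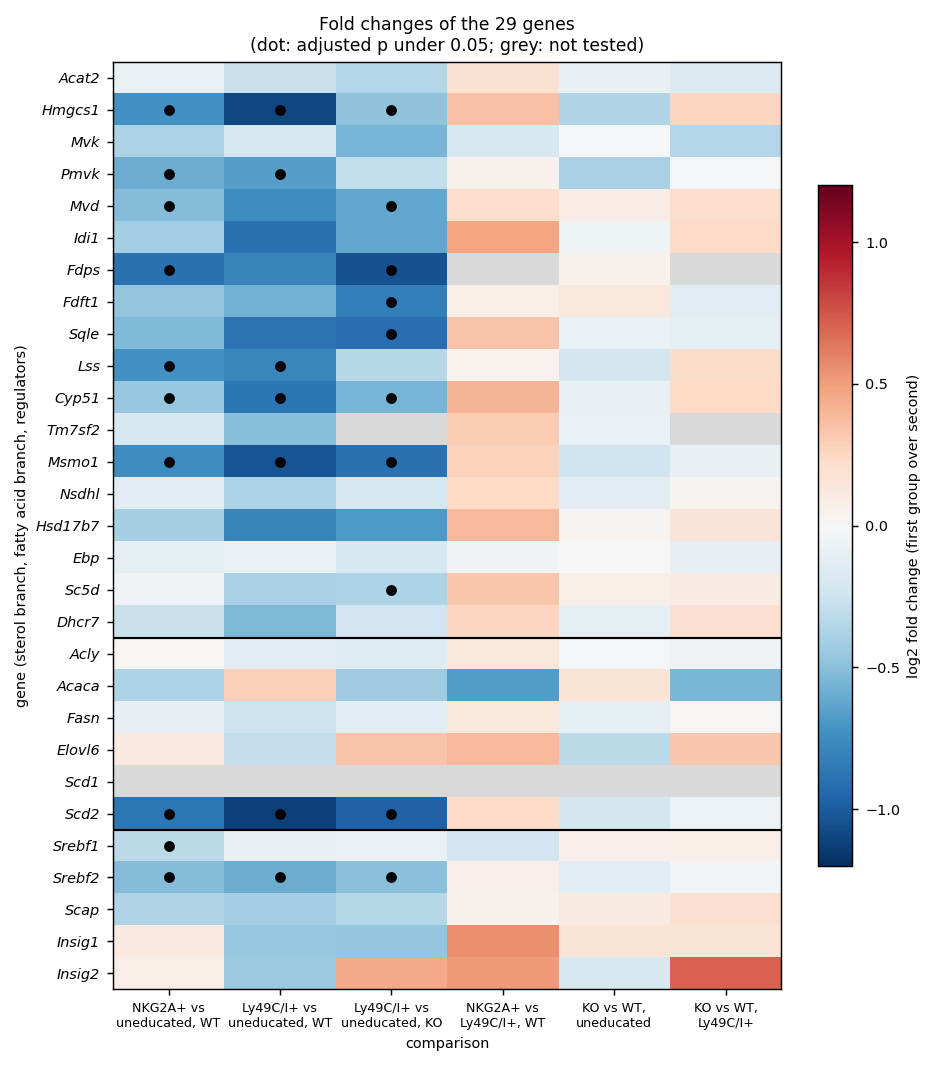
Log2 fold change (colour, first group over second) of the 29 genes in 6 comparisons, ordered by branch, with a dot where the adjusted p was under 0.05 and grey where the gene was not tested. The dots stand in the 3 columns of educated against uneducated cells, and each marks a lower level.

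The mevalonate enzymes were followed first. Hmgcs1 (chr13:119690379-119708260), the synthase that condenses acetoacetyl-CoA into HMG-CoA, ran from 103.3 to 222 CPM in WT uneducated libraries with a median of 144. It ran from 58.2 to 129.9 CPM in NKG2A+ libraries (median 93.6) and from 52.8 to 86.8 CPM in WT Ly49C/I+ libraries (median 70.1). All 6 WT Ly49C/I+ libraries thus lay below all 9 uneducated ones, whereas the NKG2A+ libraries overlapped with them. The same separation held in the Ly49C/I+ comparison for 3 of the 28 genes tested, Hmgcs1, Cyp51 and Scd2, and for 1.4% of all genes tested. The log2 fold change was -0.73 ± 0.17 (SE) (adjusted p = 0.00558) for NKG2A+ and -1.10 ± 0.19 (adjusted p = 0.00222) for WT Ly49C/I+ cells. In KO uneducated libraries Hmgcs1 ran from 96.8 to 148 CPM (median 115), and the 5 KO Ly49C/I+ libraries had 63.7, 82.0, 87.2, 87.7 and 101 CPM. There 1 Ly49C/I+ library reached into the uneducated range, and the log2 fold change was -0.49 ± 0.13 (adjusted p = 0.0180). With all 5 groups in 1 fit this call was lost (adjusted p = 0.0914). The opposite strand carries other genes over 11.6% of the 50-base stretches of Hmgcs1, and the counting was not stated to use strand.

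Pmvk, the phosphomevalonate kinase, had 41.4 to 67.4 CPM in WT uneducated libraries (median 51.9), 25.7 to 43.3 CPM in NKG2A+ libraries (median 35.6) and 20.8 to 43.4 CPM in WT Ly49C/I+ libraries (median 34.4). The educated ranges reached into the lower end of the uneducated range. The log2 fold changes were -0.60 ± 0.13 (adjusted p = 0.00342) and -0.66 ± 0.17 (adjusted p = 0.0243), and the latter passed the threshold no longer without WT uneducated 3 or 4 or without WT Ly49C/I+ 1, 5 or 8 (adjusted p up to 0.0563). In KO mice Pmvk had a log2 fold change of -0.29 ± 0.21 (adjusted p = 0.359). It passed there without KO Ly49C/I+ 8 (adjusted p = 0.0388).

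Mvd, the decarboxylase that yields isopentenyl diphosphate, ran from 44.9 to 71.4 CPM in KO uneducated libraries (median 55.0), and the KO Ly49C/I+ libraries had 29.8, 30.6, 34.3, 39.0 and 48.1 CPM. One of those 5 overlapped with the uneducated range, and the log2 fold change was -0.62 ± 0.16 (adjusted p = 0.0157), a call lost with all 5 groups in 1 fit (adjusted p = 0.0674). In WT mice it averaged 36.4 ± 8.63 CPM (SD, n = 9) in NKG2A+ cells, below the 52.6 ± 14.1 CPM (n = 9) of uneducated ones (log2 fold change -0.52 ± 0.17, adjusted p = 0.0442). That call was lost when 1 of WT uneducated 1, 2, 3, 4, 7 or 9 or of NKG2A+ 1, 2, 4, 5, 6, 7, 8 or 9 was left out, with adjusted p up to 0.0982. In WT Ly49C/I+ cells Mvd had a log2 fold change of -0.74 ± 0.24 (adjusted p = 0.0605). It was called there in 9 of the 26 alternatives, including DESeq2, the likelihood ratio test and the fit without WT uneducated 5 or 6 (adjusted p down to 0.0125).

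Idi1, the isomerase of the 5-carbon unit, ran from 10.1 to 20.5 CPM in WT uneducated, from 5.49 to 15.7 CPM in NKG2A+ and from 3.74 to 10.3 CPM in WT Ly49C/I+ libraries, with overlaps. It was not called by the edgeR quasi-likelihood test in any comparison (log2 fold change -0.41, adjusted p = 0.275 for NKG2A+, -0.89, adjusted p = 0.0579 for WT Ly49C/I+, and -0.62, adjusted p = 0.104 in KO mice). In WT Ly49C/I+ cells it passed in 4 of 26 other settings, with DESeq2, the likelihood ratio test, all 5 groups in 1 fit and without WT uneducated 5 (adjusted p down to 0.0165), and in KO mice without KO uneducated 4 (adjusted p = 0.0432). Other genes share 17.7% of the 50-base stretches of Idi1. Fdps, which joins these units into farnesyl diphosphate, was lower in KO Ly49C/I+ cells, where the libraries had 2.52, 3.58, 3.83, 4.05 and 5.06 CPM, below all 8 uneducated libraries at 6.08 to 10.2 CPM. In KO mice 4 of the 27 genes tested did not overlap in this way, Fdps, Fdft1, Msmo1 and Srebf2, against 4.12% of all genes. The log2 fold change of Fdps there was -1.04 ± 0.28 (adjusted p = 0.0180). In NKG2A+ cells it was -0.89 ± 0.28 (adjusted p = 0.0336), a call lost without NKG2A+ 1, 2, 4, 6 or 7 (adjusted p up to 0.0581), and Fdps fell under the filter in some of the other settings. The log2 fold change in WT Ly49C/I+ cells was -0.80 ± 0.35 (adjusted p = 0.165). Fdps was counted at low level, and 26.2% of its 50-base stretches occur in pseudogenes and other genes. It reached 5 CPM in 8 of 8 KO uneducated but in 1 of 5 KO Ly49C/I+ libraries. In WT mice it did so in 7 of 9 uneducated and 2 of 9 NKG2A+ libraries. Fdps thus passed the filter through the group where it was higher, and its calls and its separation are not taken as support. The thiolase Acat2 and the mevalonate kinase Mvk were not called by the quasi-likelihood test in any comparison, with log2 fold changes between -0.08 and -0.55 for educated against uneducated cells. Mvk was called in KO mice without KO Ly49C/I+ 7 (adjusted p = 0.0472). Of the 50-base stretches of Acat2, 39.1% also occur in Acat3.

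The next 3 enzymes turn farnesyl diphosphate into lanosterol. Fdft1, the squalene synthase, and Sqle, the squalene epoxidase that commits squalene to sterols, were lower in KO Ly49C/I+ cells. For Fdft1 the 5 libraries had 26.8, 32.1, 38.1, 38.5 and 40.9 CPM, below the 41.9 to 80.3 CPM of the uneducated libraries (log2 fold change -0.82 ± 0.17, adjusted p = 0.00445). For Sqle they had 36.2, 46.1, 47.8, 55.6 and 65.4 CPM against 61.9 to 120.4 CPM, an overlap of 1 library (log2 fold change -0.91 ± 0.17, adjusted p = 0.00223). In WT mice neither gene passed the threshold in the quasi-likelihood test. Sqle had log2 fold changes of -0.53 ± 0.23 (adjusted p = 0.128) in NKG2A+ and -0.89 ± 0.30 (adjusted p = 0.0681) in Ly49C/I+ cells, and WT uneducated 5 had the lowest of the 9 uneducated values (38.0 CPM against a median of 110.2). Without that library Sqle passed in both WT comparisons, and in Ly49C/I+ cells also with DESeq2 and the likelihood ratio test, with adjusted p down to 0.0234 for NKG2A+ and 0.0112 for Ly49C/I+ over all alternatives tried. Fdft1 also passed in NKG2A+ cells without WT uneducated 5, with adjusted p down to 0.0384 over all alternatives tried. Fdft1 lies opposite Ctsb over 17.2% of its 50-base stretches. Without strand the reads of that protease gene cannot be told apart from its own there. The deposited counts set aside some reads as ambiguous between genes (4.04 to 4.60% of each library), which may include these.

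Lss, which cyclises the epoxide into lanosterol, was lower in both educated WT populations. It ran from 43.5 to 106 CPM in uneducated libraries (median 79.0), from 27.1 to 67.6 CPM in NKG2A+ libraries (median 45.4) and from 30.6 to 60.5 CPM in Ly49C/I+ libraries (median 44.7). The ranges overlapped in both comparisons. The log2 fold changes were -0.72 ± 0.19 (adjusted p = 0.0117) and -0.78 ± 0.21 (adjusted p = 0.0295). The Ly49C/I+ call was lost without WT uneducated 1, 2, 3 or 4 or without WT Ly49C/I+ 1, 5, 7 or 8 (adjusted p up to 0.0848). In KO mice Lss had a log2 fold change of -0.34 ± 0.15 (adjusted p = 0.123).

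Among the enzymes after lanosterol, Cyp51 and Msmo1, which remove the methyl groups of lanosterol in turn, were lower in all 3 comparisons. Cyp51 (chr5:4081145-4104746) ran from 124.3 to 216 CPM in WT uneducated libraries (median 190.2), from 74.9 to 183 CPM in NKG2A+ libraries (median 137) and from 75.7 to 119 CPM in WT Ly49C/I+ libraries (median 98.5). The Ly49C/I+ libraries lay wholly below the uneducated ones and the NKG2A+ libraries overlapped with them. The log2 fold changes were -0.45 ± 0.14 (adjusted p = 0.0354) in NKG2A+ and -0.88 ± 0.13 (adjusted p = 9.74e-04) in Ly49C/I+ cells. The NKG2A+ call was lost when 1 of WT uneducated 1, 2, 3, 4, 7 or 8 or of NKG2A+ 1, 2, 6 or 9 was left out (adjusted p up to 0.0657). In KO mice Cyp51 ran from 124.0 to 208 CPM in uneducated libraries and had 87.2, 117, 118, 119.5 and 132 CPM in the 5 Ly49C/I+ libraries, of which 1 reached the uneducated range (log2 fold change -0.55 ± 0.13, adjusted p = 0.00821).

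Msmo1 (chr8:64718139-64733792) had 73.1 to 200.3 CPM in WT uneducated libraries (median 134), 51.1 to 108 CPM in NKG2A+ libraries (median 72.6) and 51.3 to 78.5 CPM in WT Ly49C/I+ libraries (median 60.3). Both educated groups overlapped with the lower end of a wide uneducated range. The log2 fold changes were -0.75 ± 0.18 (adjusted p = 0.00749) and -1.04 ± 0.21 (adjusted p = 0.00571). In KO mice it ran from 71.2 to 152 CPM in uneducated libraries (median 112), above the 48.4, 56.4, 57.8, 65.1 and 67.7 CPM of the Ly49C/I+ libraries (log2 fold change -0.89 ± 0.17, adjusted p = 0.00289).

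Of the later steps, Sc5d, the desaturase of the sterol ring, was called lower in KO Ly49C/I+ cells (79.5 ± 7.76 against 102.9 ± 11.9 CPM, log2 fold change -0.37 ± 0.11, adjusted p = 0.0256). Its call was lost without KO Ly49C/I+ 4 or 6 (adjusted p up to 0.0740) and with all 5 groups in 1 fit (adjusted p = 0.0555). Its log2 fold change in WT Ly49C/I+ cells was -0.39 ± 0.13 (adjusted p = 0.0702), and it passed there in 3 of 26 other settings, with DESeq2, with all 5 groups in 1 fit and without WT uneducated 9 (adjusted p down to 0.0168). The dehydrogenase Nsdhl, Hsd17b7, Ebp and the reductases Dhcr7 and Tm7sf2 were not called by the quasi-likelihood test in any comparison. Nsdhl had log2 fold changes of -0.12, -0.38 and -0.21 and Dhcr7 of -0.26, -0.54 and -0.23, with adjusted p of at least 0.124. With all 5 groups in 1 fit Dhcr7 passed in WT Ly49C/I+ cells (adjusted p = 0.0312). Tm7sf2 had -0.20 and -0.51 in the WT comparisons and was under the filter in KO mice. Ebp lay between -0.08 and -0.19, and Hsd17b7, the 3-ketosteroid reductase, had -0.39, -0.80 and -0.69 with adjusted p of 0.375, 0.198 and 0.110.

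**Figure D3:**
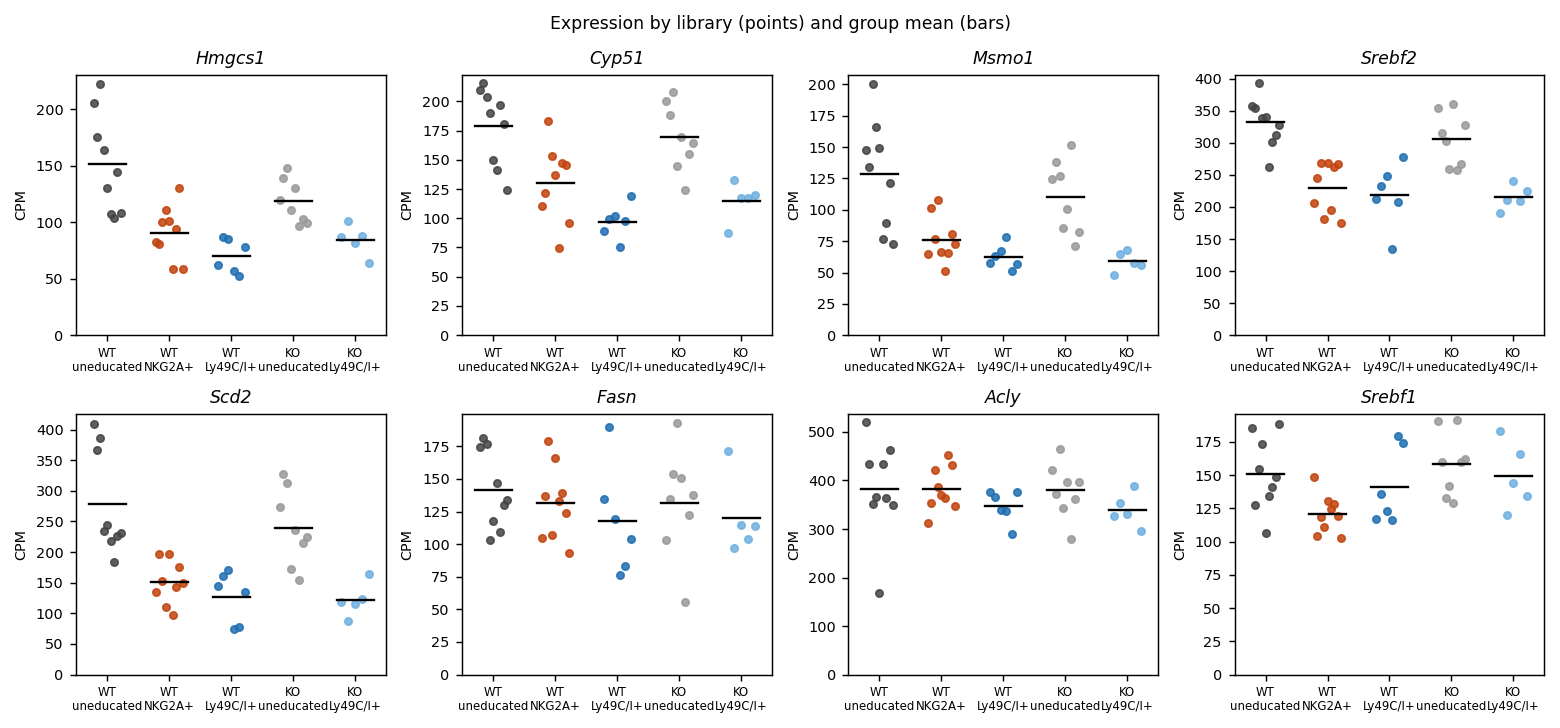
CPM of 8 genes in each of 37 libraries (points) with the mean of each of the 5 groups (bars). Hmgcs1, Cyp51, Msmo1, Srebf2 and Scd2 have lower means in the educated than in the uneducated groups of both genotypes, and the points of Fasn, Acly and Srebf1 overlap between all groups.

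Of the fatty acid branch, Acly, Fasn, Acaca and Elovl6 were not called in any comparison, and the branches were not tested against each other. Acly had 383 ± 99.7, 382 ± 45.4 and 347 ± 33.0 CPM in WT uneducated, NKG2A+ and Ly49C/I+ cells, with log2 fold changes of 0.01 ± 0.14 (adjusted p = 0.973) and -0.13 ± 0.16 (adjusted p = 0.676). Fasn had 141 ± 30.0, 131 ± 28.3 and 118 ± 41.5 CPM, with log2 fold changes of -0.10 ± 0.13 (adjusted p = 0.689) and -0.25 ± 0.18 (adjusted p = 0.434). In KO mice the log2 fold changes were -0.16 ± 0.10 (adjusted p = 0.317) for Acly and -0.12 ± 0.21 (adjusted p = 0.740) for Fasn. Acaca, which makes malonyl-CoA, lay at 6.29 to 9.92 CPM in the group means and its log2 fold changes were -0.37, 0.29 and -0.42, with adjusted p of 0.512, 0.682 and 0.494. Over the alternatives tried, its log2 fold change in WT Ly49C/I+ cells ran from -0.18 to 0.42, so its sign there was not stable. Elovl6, which lengthens palmitate, had 0.11, -0.29 and 0.34 with adjusted p of 0.790, 0.588 and 0.277. A call missed does not show that a level was equal, and the standard errors of Acaca and Elovl6 ran from 0.21 to 0.39.

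Scd2 (chr19:44293674-44306864), the desaturase that makes oleate, was the member of the fatty acid branch that was called. It ran from 183 to 409 CPM in WT uneducated libraries (median 235), from 97.8 to 197.5 CPM in NKG2A+ libraries (median 150.0) and from 74.6 to 170.0 CPM in WT Ly49C/I+ libraries (median 139.9). No Ly49C/I+ library reached the uneducated range, and the NKG2A+ range reached its lower end. The log2 fold changes were -0.87 ± 0.16 (adjusted p = 9.11e-04) and -1.12 ± 0.22 (adjusted p = 0.00529). In KO mice Scd2 ran from 155 to 327 CPM in uneducated libraries (median 230.3), and the Ly49C/I+ libraries had 87.4, 115.5, 119, 124 and 164 CPM, of which 1 reached the uneducated range (log2 fold change -0.97 ± 0.18, adjusted p = 0.00218). Of the 50-base stretches of Scd2, 3.97% also occur in the other Scd genes.

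Srebf2, which encodes SREBP-2, the family member best known for sterol genes, was lower in all 3 comparisons. It ran from 262 to 394 CPM in WT uneducated libraries (median 339), from 175 to 269 CPM in NKG2A+ libraries (median 245) and from 134 to 278 CPM in WT Ly49C/I+ libraries (median 223). The ranges overlapped at their ends. The log2 fold changes were -0.52 ± 0.099 (adjusted p = 0.00104) and -0.60 ± 0.13 (adjusted p = 0.00818). In KO mice the 8 uneducated libraries ran from 258 to 361 CPM (median 308.5) and the 5 Ly49C/I+ libraries had 191, 210.0, 210.5, 224 and 240.0 CPM, all below them (log2 fold change -0.50 ± 0.097, adjusted p = 0.00291).

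The other regulators moved less or not together. Srebf1, which encodes SREBP-1, was lower in NKG2A+ cells (121 ± 14.3 against 151 ± 27.4 CPM, log2 fold change -0.31 ± 0.10, adjusted p = 0.0448). This call was lost when 1 of WT uneducated 1, 3, 4, 8 or 9 or of NKG2A+ 2 to 9 was left out (adjusted p up to 0.0913). Its log2 fold change was -0.09 ± 0.13 (adjusted p = 0.730) in WT and -0.08 ± 0.12 (adjusted p = 0.707) in KO Ly49C/I+ cells. Scap, the escort, had log2 fold changes of -0.36 ± 0.14 (adjusted p = 0.0813), -0.42 ± 0.20 (adjusted p = 0.204) and -0.34 ± 0.14 (adjusted p = 0.112). Without WT uneducated 5 or without WT uneducated 7, Scap passed the threshold in NKG2A+ cells, with adjusted p down to 0.0340 over all alternatives tried. With offsets for GC content and length Scap passed in KO mice (adjusted p = 0.0377). With the replicate block as well it passed in WT Ly49C/I+ cells (adjusted p = 0.0353). Insig1 and Insig2, the anchors in the endoplasmic reticulum, had log2 fold changes of 0.12 and 0.08 in NKG2A+, -0.45 and -0.44 in WT Ly49C/I+ and -0.46 and 0.46 in KO Ly49C/I+ cells, with adjusted p between 0.157 and 0.837. Over the alternatives tried, the log2 fold change of Insig2 in WT Ly49C/I+ cells ran from -0.58 to -0.08. WT uneducated 5 had 6.00 CPM of Insig1 against a median of 47.8 CPM, and without it Insig1 passed the threshold in WT Ly49C/I+ cells (adjusted p down to 0.0194 over all alternatives tried).

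As a description over the whole branch, the mean of log2(CPM + 1) over the 18 sterol genes was taken in each library. It ran from 5.22 to 5.89 in WT uneducated libraries, from 4.80 to 5.32 in NKG2A+ libraries and from 4.58 to 5.16 in WT Ly49C/I+ libraries. In KO mice it ran from 5.18 to 5.73 in uneducated and from 4.90 to 5.03 in Ly49C/I+ libraries. Both Ly49C/I+ groups lay below their uneducated groups and the NKG2A+ group overlapped with its own. Within the WT uneducated group, libraries 1 to 4 lay at 5.71 to 5.89 and the other 5 at 5.22 to 5.43. In the WT Ly49C/I+ group, libraries 1, 2 and 4 lay at 4.96 to 5.16 and libraries 5, 7 and 8 at 4.58 to 4.87. The NKG2A+ and KO uneducated libraries did not split by number in this way. The labels name no batch for these libraries. The mean of 5 fatty acid genes ran from 5.92 to 6.70 in WT uneducated, from 5.77 to 6.35 in NKG2A+ and from 5.77 to 6.22 in WT Ly49C/I+ libraries, and from 5.55 to 6.59 in KO uneducated and from 5.73 to 6.29 in KO Ly49C/I+ libraries, so that all groups overlapped.

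**Figure D4:**
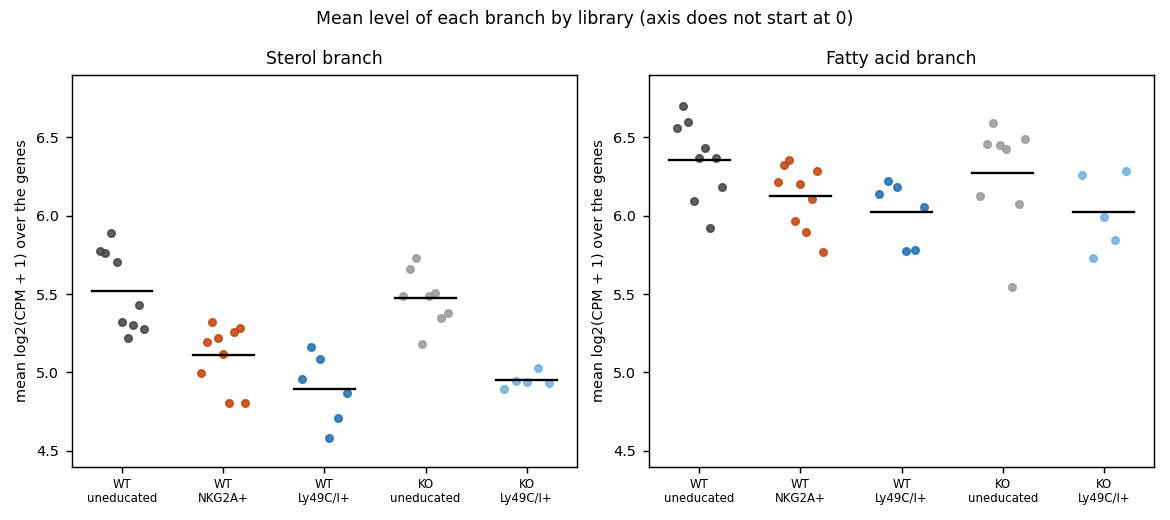
Mean log2(CPM + 1) over the 18 sterol genes (left) and over 5 fatty acid genes (right) in each library (points) with group means (bars), on an axis from 4.4 to 6.9. Sterol means of Ly49C/I+ libraries lie at or below 5.16 in WT and 5.03 in KO mice, below every uneducated library of the same genotype.

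The educated populations were then compared with each other. None of the 27 genes tested differed between NKG2A+ and Ly49C/I+ WT cells at an adjusted p under 0.05, and 4 had an unadjusted p under 0.05, beside 2.73% of 9308 genes called and 18.4% with an unadjusted p under 0.05. The log2 fold change of NKG2A+ over Ly49C/I+ cells was above 0 for 23 of the 27, with a median of 0.23 beside -0.0006 over all genes. The cell division list given below was above 0 for 17 of 17 genes in the same comparison, with a median of 0.30. Insig1 came closest, with 48.1 ± 11.4 against 32.3 ± 5.17 CPM (log2 fold change 0.56 ± 0.17, adjusted p = 0.0813). It passed the threshold by the edgeR likelihood ratio test, with DESeq2 and without NKG2A+ 9 (adjusted p down to 0.0216 over all alternatives tried). Hmgcs1 had a log2 fold change of 0.36 ± 0.18 (adjusted p = 0.290), Cyp51 0.41 ± 0.16 (adjusted p = 0.163) and Scd2 0.23 ± 0.19 (adjusted p = 0.559).

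No change in these genes was detected between KO and WT mice. In uneducated cells none of the 28 tested and in Ly49C/I+ cells none of the 26 tested passed the threshold (edgeR quasi-likelihood test), and 2 and 1 had an unadjusted p under 0.05. No gene of all 9288 and 9344 tested was called (0%), and 6.66% and 10.7% had an unadjusted p under 0.05. The smallest p in uneducated cells was that of Pmvk, with 41.2 ± 7.64 CPM in KO and 53.4 ± 9.68 CPM in WT libraries (log2 fold change -0.39 ± 0.14, adjusted p = 0.609). In Ly49C/I+ cells it was that of Insig2, with 30.9 ± 7.16 against 18.9 ± 6.37 CPM (log2 fold change 0.70 ± 0.29, adjusted p = 0.428). DESeq2 called none of the lipid genes in either comparison, and 1 and 84 of all genes.

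Whether the difference between Ly49C/I+ and uneducated cells depended on genotype was tested as an interaction. None of the 28 genes passed (0% of 9322 genes called, 4.44% with an unadjusted p under 0.05), and DESeq2 called none of them and 1 of all genes. Hmgcs1 had the largest departure among the sterol genes, with a fold change 0.60 ± 0.23 higher on the log2 scale in KO than in WT mice (adjusted p = 0.998). Insig2 had a difference of 0.89 ± 0.38 (adjusted p = 0.998). The differences for Mvd (0.11 ± 0.30), Fdps (-0.26 ± 0.42), Sqle (-0.04 ± 0.37), Fdft1 (-0.27 ± 0.33), Lss (0.42 ± 0.27), Pmvk (0.35 ± 0.27) and Sc5d (0.01 ± 0.17), whose Ly49C/I+ difference was called in 1 genotype, had adjusted p of 0.998. For those genes a call in WT or in KO mice alone is therefore not shown to be a difference between the genotypes.

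Co-variation was described over the 37 libraries after the mean of each group was subtracted, which leaves the spread between libraries of a group. Pearson's r between pairs of sterol genes had a median of 0.206 over 153 pairs, and 41.2% of pairs lay above 0.3, beside a median of 0.004 and 11.2% over all pairs of 9287 genes. Without the 4 libraries with the fewest genes the sterol pairs had a median of 0.261, and 46.4% lay above 0.3. The points share their library and its depth. Fdft1 and Sqle had r = 0.788 and Hmgcs1 and Idi1 r = 0.742, and without the 4 libraries with the fewest genes they had 0.701 and 0.739. By the median of its r with the sterol genes, Hmgcs1 came first (0.502), then Idi1 (0.460), Cyp51 (0.414), Scd2 (0.411), Sc5d (0.401) and Fdft1 (0.400). Srebf2 had a median of 0.376 and Srebf1 of -0.002, though Srebf1 had r = 0.409 with Mvd and 0.358 with Fdft1. Srebf1 and Mvd were both lowest of their group in WT uneducated 5, NKG2A+ 9 and WT Ly49C/I+ 5. In KO Ly49C/I+ 5 Srebf1 was lowest and Mvd highest. Fdft1 was lowest of its group in WT uneducated 5 and WT Ly49C/I+ 5. The r of Srebf1 with Mvd and Fdft1 was not taken without these libraries. The lowest medians in the sterol branch were those of Tm7sf2 (-0.086), Dhcr7 (0.017), Acat2 (0.047), Mvk (0.073) and Nsdhl (0.122), and in the fatty acid branch Fasn had 0.256, Acly 0.195 and Elovl6 0.042. The pair Acly and Insig1 had r = 0.679 over all libraries and 0.189 without those 4.

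**Figure D5:**
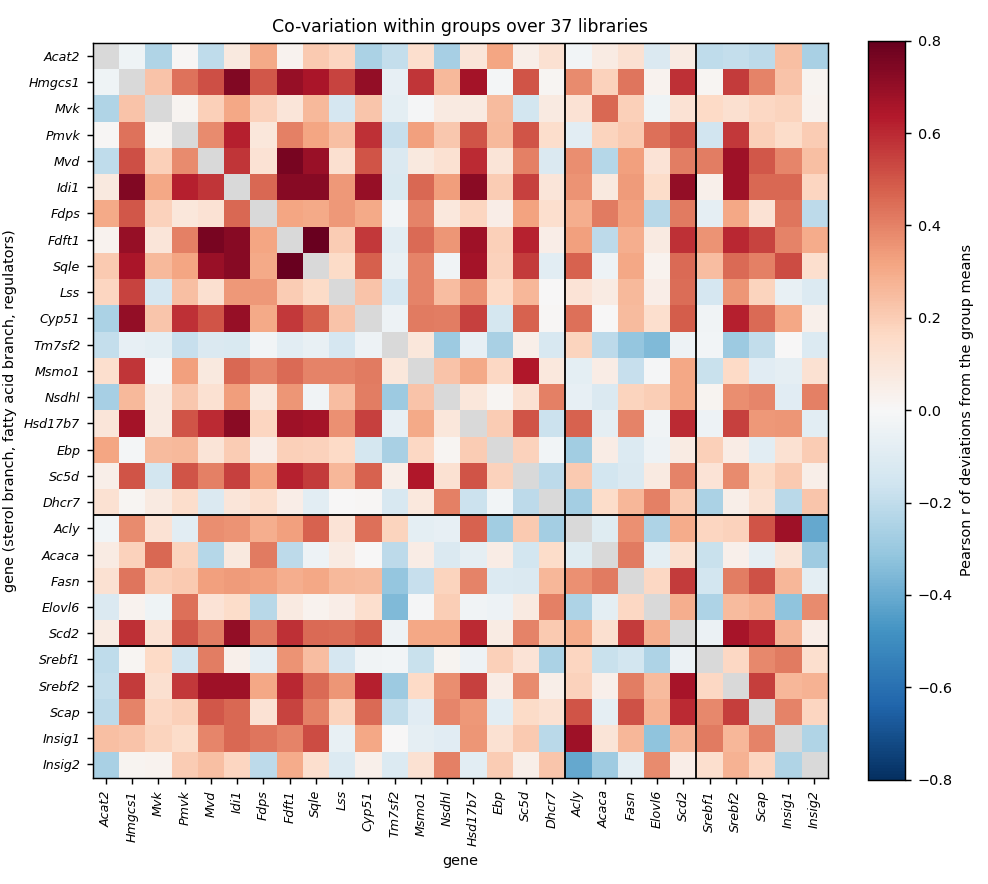
Pearson's r between genes of the deviations of log2(CPM + 1) from the group means over 37 libraries, ordered by branch, with Scd1 left out. Hmgcs1, Idi1, Fdft1, Sqle, Cyp51, Hsd17b7, Scd2 and Srebf2 form rows of high values, Fdft1 with Sqle has r = 0.788, and the medians with the sterol genes are -0.002 for Srebf1 and -0.086 for Tm7sf2.

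Genes of 3 neighbouring lists were counted beside the members. Of 23 other genes of lipid synthesis, 4 of 21 tested were lower in NKG2A+ cells and 4 of 21 in WT Ly49C/I+ cells. In KO Ly49C/I+ cells 3 of 20 were lower, and none was higher in any of the 3 groups. These lower genes made up 19%, 19% and 15% of those tested, beside 7.56%, 5.05% and 8.99% of all genes. Among them were genes of fatty acid elongation, Hacd3 (log2 fold change -0.46 in NKG2A+ and -0.47 in WT Ly49C/I+), Tecr (-0.27 in NKG2A+ and -0.26 in KO) and Hsd17b12 (-0.32 and -0.45 in WT), together with Mid1ip1, a partner of acetyl-CoA carboxylase (-0.65 in WT Ly49C/I+), and Slc25a1, the mitochondrial citrate carrier (-0.57 in KO). Between the educated WT groups Lbr, a sterol reductase of the nuclear envelope, was higher in NKG2A+ cells (log2 fold change 0.41, adjusted p = 0.0277).

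Of 17 genes that handle sterols, the lysosomal exporter Npc1 was lower in NKG2A+ cells (1 of 15 tested, log2 fold change -0.58, adjusted p = 0.0201). In WT Ly49C/I+ cells the sterol carrier Stard4 was lower (-0.48, adjusted p = 0.0441) and Nr1h2, which encodes the oxysterol receptor LXR beta, was higher (0.40, adjusted p = 0.0373), out of 14 tested. In KO Ly49C/I+ cells Abca1 (1.24, adjusted p = 0.0426) and Abcg1 (0.59, adjusted p = 0.0386), which export cholesterol, were higher, out of 15 tested. The called shares of this list were 6.67%, 14.3% and 13.3%, beside 15%, 9.3% and 16.3% of all genes tested. Its log2 fold changes split about evenly, with 7 above and 8 below 0 in NKG2A+ cells. They were 7 and 7 in WT and 7 and 8 in KO Ly49C/I+ cells. Of 17 cell division genes, Top2a was higher in NKG2A+ cells (0.45, adjusted p = 0.0196), none of 17 was called in WT Ly49C/I+ cells, where 2 had an unadjusted p under 0.05, and 6 were lower in KO Ly49C/I+ cells, led by Mcm3 (-0.56, adjusted p = 0.00454), Ccnb2 (-0.48, adjusted p = 0.00616) and Birc5 (-0.55, adjusted p = 0.00694). The called shares of the cell division list were 5.88%, 0% and 35.3% in that order, beside 15%, 9.3% and 16.3% of all genes tested. Its median log2 fold changes were 0.12, -0.18 and -0.39. The part of cell division in the levels of the lipid genes was not tested.

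Other markers also moved with the groups. Epcam was lower in each educated group (65.6 CPM in WT uneducated, 26.8 in NKG2A+ and 30.3 in Ly49C/I+ cells, and 50.5 against 20.3 CPM in KO mice), but its list of 6 epithelial and trophoblast markers had 1 gene tested, and Tpbpa and Prl3d1 averaged under 1 CPM in every group. Summed over that list, WT uneducated libraries had 47.2 to 196, NKG2A+ 19.7 to 80.3 and WT Ly49C/I+ 26.4 to 45.0 CPM, and KO libraries 35.2 to 76.4 and 10.1 to 33.8 CPM. Pecam1 was lower in both educated WT groups (274 against 161 and 169 CPM), while the other 4 endothelial markers, Cdh5, Kdr, Tek and Emcn, averaged under 1 CPM in every group. Stromal markers summed to at most 30.7 CPM in any library and B cell markers to at most 6.13 CPM, and myeloid markers reached 264 CPM in NKG2A+ 1 and 371 CPM in WT Ly49C/I+ 1. Of 8 T cell markers 5 were tested in NKG2A+ cells. Cd3d (log2 fold change 1.19) and Cd3e (1.84) were higher there, Cd3g (-0.13), Trac (-0.24) and Cd28 (0.35) were not called, and Cd4 and Cd8a averaged under 1 CPM in every group. Of 8 NK markers, 4 were higher and 2 lower in NKG2A+ and in KO Ly49C/I+ cells, and 1 was higher and 2 lower in WT Ly49C/I+ cells. The lower ones were Prf1 and Gzmb in each, Tbx21 was higher in each, and Ncr1 (0.64 and 0.33), Klrb1c (0.62 and 0.51) and Nkg7 (0.37 and 0.37) were higher in NKG2A+ and KO Ly49C/I+ cells. Reads outside genes made up 2.90 to 4.47% in WT uneducated, 3.01 to 4.49% in NKG2A+ and 4.16 to 6.83% in WT Ly49C/I+ libraries. The part of these differences in the levels of the lipid genes was not tested.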

How the data were processed

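uNK cell RNA was amplified with the SMART-Seq v4 kit, which does not mark strand, and libraries were made with Nextera XT. The submitters' processing notes name FastQC 0.11.4, Trim Galore 0.5.0, STAR 2.7.1, edgeR 3.26.5, R 3.6.1 and the GRCm38 build. The authors deposited raw read counts per gene, 1 file per library, with 53700 gene rows and 5 summary lines. Which program counted the reads, and with which strand setting, is not stated by the sources at hand. The summary lines were left out, and reads outside genes came to 2.69 to 6.83% of each library. Reads set aside as ambiguous between genes came to 4.04 to 4.60%, and those not uniquely aligned to 11.3 to 13.8%. GENCODE M21 gave symbols for 52093 of the IDs, and also gene positions, lengths and the 50-base stretches shared between genes.

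Counts were tested with the quasi-likelihood test of edgeR 4.0.16 (R 4.3.3) with TMM scaling, for genes at 5 CPM or more in at least 0.5 of the libraries compared, on the groups compared alone (4 groups for the difference between genotypes). Benjamini-Hochberg adjusted p under 0.05 over all genes tested was the threshold. Values are TMM-scaled CPM, and log2(CPM + 1) was used for branch means and co-variation. Standard errors are those of the log2 fold change. Alternatives were DESeq2 1.42.0, the likelihood ratio test, RLE scaling, other filters, all 5 groups in 1 fit, offsets for GC content and length, the replicate number as a block, and each library left out. The tests were tried on simulated data first. All 29 genes were given, with full values for those past the threshold and for the regulators and main enzymes, and genes of other lists past the threshold were named where 5 or fewer, otherwise the 3 of smallest p. One gene of the list of other lipid synthesis genes enters its counts and is not reported here. The members and lists were chosen with earlier results of these data known. The labels do not say that libraries of a group came from separate mice, so p-values measure the spread between these libraries, which may be technical. Same-numbered libraries counted as pairs only where r of their deviations was over 0.1 in every pair, which no comparison met, so the numbers were not taken as pairs. The lowest r was 0.072 for Ly49C/I+ against uneducated WT, 0.037 for NKG2A+ against Ly49C/I+, 0.022 for Ly49C/I+ against uneducated KO and -0.017 for NKG2A+ against uneducated WT.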

Additional observations from a re-analysis of the deposited data

Results flagged for a closer look

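Of 145 sets of values of 1 gene in 1 group, 10 held a library far from the others by Dixon's criterion, and chance alone gives about 1 in 20. In WT Ly49C/I+ 5, Mvd was low (10.42 CPM, nearest library 33.17), Insig2 was low (6.488, nearest 18.02) and Acaca was high (23.33, nearest 8.396). In WT uneducated 5, Acly was low (167.4 CPM, nearest 349.2) and Elovl6 was high (58.94, nearest 39.86). Acaca was low in NKG2A+ 9 (0.8671 CPM, nearest 5.72) and Hsd17b7 was high in KO Ly49C/I+ 5 (21.09, nearest 13.13). The libraries named so far are the 4 with the fewest genes counted. Lss was high in KO uneducated 8 (93.14 CPM, nearest 71.64), Fasn in KO Ly49C/I+ 4 (171.4, nearest 114.5) and Scd1 in NKG2A+ 1 (5.426, nearest 1.334). What set these values apart was not tested.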

How the results depend on the processing

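Of 693 log2 fold changes of called genes under other settings, 607 stayed past the threshold, 86 did not and 0 changed sign. Most of these settings left out 1 library and so share nearly all data. Settings in which a gene fell under the filter were not counted. In NKG2A+ cells Mvd stayed past the threshold in 10, Srebf1 in 14 and Cyp51 in 18 of 29 settings, and Fdps in 12 of 20. Hmgcs1, Pmvk, Lss, Msmo1, Scd2 and Srebf2 did so in all 29. For NKG2A+ against uneducated WT cells, 10 genes were lower, 6 with no filter on CPM and 6 to 13 with 1 library left out (6 without WT uneducated 1, 3 or 4 or NKG2A+ 2 or 6, 13 without WT uneducated 5). For Ly49C/I+ against uneducated WT cells, 7 were lower, 11 with DESeq2, 12 with all 5 groups in 1 fit and 5 to 11 with 1 library left out (11 without WT uneducated 5). For NKG2A+ against Ly49C/I+ cells, 0 differed, and 1 with the likelihood ratio test, with DESeq2, with the replicate block (Cyp51) and without the 4 libraries with the fewest genes, and 0 to 1 with 1 library left out (1 without NKG2A+ 9). For Ly49C/I+ against uneducated KO cells, 10 were lower, 9 to 11 with 1 library left out. With the replicate number as a block this count was 6, and 3 with offsets for GC content and length as well. Under the block these no longer passed: Hmgcs1 (adjusted p = 0.0558), Mvd (0.0972), Fdps (0.119) and Sc5d (0.173), and with the offsets also Fdft1 (0.0549), Sqle (0.0515) and Cyp51 (0.0848). The block gave 7 (11 with the offsets) for NKG2A+ and 9 (10) for Ly49C/I+ against uneducated WT cells. Over all genes the block moved the KO count from 1519 to 759. Leaving out the filter moved no KO or genotype count of the lipid genes by more than 1.5 times. The cause of these shifts was not tested. The genotype comparisons and the difference between genotypes gave 0 lipid genes in every alternative run, leaving out 1 library included (0 to 0). Libraries correlated best with their own number in 6 of 6 pairs for NKG2A+ against Ly49C/I+ (median r 0.079), 5 of 6 for Ly49C/I+ (0.13) and 4 of 9 for NKG2A+ (0.1) against uneducated WT, and 3 of 5 for Ly49C/I+ against uneducated KO (0.034), a hint from the data and not the design. Depth limits Scd1, Fdps, Tm7sf2 and Acaca, which lay near or under 5 CPM in part of the libraries.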
